A study of Mus musculus with 12 samples.

Results

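The poly(A) signal is a hexamer upstream of the end of most messenger RNAs, and its usual spelling is aataaa. A protein complex, the cleavage and polyadenylation specificity factor (CPSF), recognises it and cuts the RNA a short way downstream, where poly(A) polymerase then adds the tail. Spellings that depart from it at a single base also occur at mapped RNA ends, and which base is replaced is known to affect how well the signal works in cleavage assays. In mouse embryonic stem cells many RNAs end early, close to promoters or inside introns, and U1 snRNP, the particle that recognises 5′ splice sites, is known to hold such premature ends back. The RNA exosome, of which Exosc3 is a core subunit, degrades many of the short RNAs made in this way.

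The sites described here are those whose listed hexamer departed from aataaa at exactly 1 base, which was base 4 or base 6, counting from 1 at the 5′ end. They were 2745 of the 145099 poly(A) site clusters outside the mitochondrial genome, or 1.89%, and 2.12% of the 129401 clusters with any hexamer. Base 4 was the changed base at 2295 of them and base 6 at 450. The spellings are shown because the results below turn on them, with the changed base in capitals.

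base 4 to G: aatGaa, with 1800 sites, the change A4G
base 4 to T: aatTaa, with 495 sites, the change A4T
base 6 to T: aataaT, with 450 sites, the change A6T

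Of the 6 possible spellings changed at base 4 or base 6, these 3 were listed. Those with C at base 4 (A4C), C at base 6 (A6C) and G at base 6 (A6G) were listed at 0 sites. The other 12 possible single-base departures were all listed, so 15 of 18 occurred, within 36 hexamers in all. A spelling listed at 0 sites may have been left out of the authors' list of hexamers, so its absence says nothing of its use in the cells. Base 6 is therefore represented by 1 hexamer, and any comparison of base 4 with base 6 is a comparison of 2 hexamers with 1.

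The catalogue came from 3′-end sequencing (2P-seq) of poly(A) RNA in 12 libraries, 6 groups of 2. All came from Exosc3 conditional knockout (CKO) clones of the V6.5 mouse embryonic stem cell line, kept in 0.1 μg/ml doxycycline, in which Exosc3 is present, or withdrawn from it. The groups were dox+ and dox- at 3 days, and dox+ and dox- at 2 days with nucleofection of 15 μM U1 AMO, an antisense oligonucleotide against U1 snRNA, or of Scr AMO, its scrambled control, with RNA taken 8 hours later. The labels do not say which clone gave which library, and a clone with a conditional allele is a model of Exosc3 loss in that clone only. The catalogue gave 1 list of positions for the whole series in 7 columns, with 0 columns of values per library. The depth of a library is therefore unknown, and no site could be tied to a group. For the same reason stem cell markers were not analysed here. Replicate libraries give no spread for these values. The spread given below is that between the 19 autosomes, and its tests measure evenness along the genome, not repeatability between cultures.

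Members were spread over the autosomes in about the proportion of all sites. Their share was lowest on chromosome 15 (1.30%) and next lowest on chromosome 6 (1.68%). On the autosomes 2655 members were found, 87 lay on chromosome X, 3 on unplaced sequence and 0 on chromosome Y. They made up 1.89% ± 0.194 (SD, n = 19) of the sites of an autosome, from 1.30% to 2.15%. An autosome held 116.7 ± 36.75 base 4 sites and 23.1 ± 7.67 base 6 sites (SD, n = 19), from 62 to 183 and from 9 to 39. A base 6 share on 1 autosome therefore rests on few sites, and the spread of the base 6 values below is wide.

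The first question was where the hexamers lay. A working signal lies a short and fairly fixed distance from the cut, whereas a hexamer listed because its letters happen to occur could lie anywhere in the searched stretch. The catalogue lists hexamers from 6 to 100 nt away. From which point of the cluster the distance runs is not given in the sources used here, but it lay inside the cluster and on no fixed edge. All 3 spellings had their most frequent distance at 20 nt, with 124 sites for base 4 to G, 26 for base 4 to T and 22 for base 6 to T. The canonical spelling had its most frequent distance there as well. Past this shared peak the spellings parted in how many of their sites lay outside it.

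**Figure D1:**
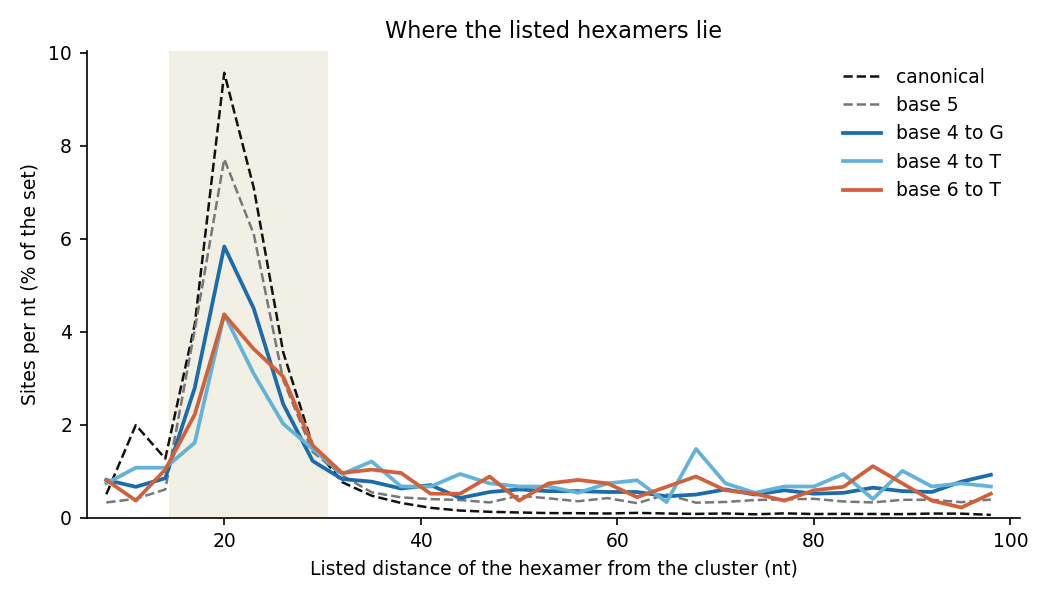
Sites per nt, as a percentage of each set, against the listed distance of the hexamer in nt, in bins of 3 nt, for the 3 member spellings (solid) and for the canonical signal and base 5 variants (dashed); the shaded band is 15 to 30 nt. All sets peak at about 20 nt, the members lower than base 5 and the canonical signal, and the members keep a tail of sites out to 100 nt, with a small rise of base 4 to G near its end.

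Base 4 to G had 51.6% of its sites at 15 to 30 nt (928 of 1800, 95% Wilson interval 49.2% to 53.9%). Base 6 to T had 46.4% there (209 of 450, 41.9% to 51.1%), and base 4 to T had 38.8% (192 of 495, 34.6% to 43.2%). The other base 4 spelling had the lowest share, and the base 6 spelling lay between the 2 base 4 spellings. The median distance was 26 nt for base 4 to G (quartiles 20 and 59 nt), 28 nt for base 6 to T (21 and 59 nt) and 34 nt for base 4 to T (21 and 67 nt). In the far stretch of 61 to 100 nt lay 23.9% of base 4 to G, 23.8% of base 6 to T and 30.1% of base 4 to T.

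The far stretch gives a level per nt against which the peak can be read. Sites with base 4 to G numbered 58 per nt at 15 to 30 nt and 10.75 per nt at 61 to 100 nt, a ratio of 5.40 (95% interval 4.81 to 6.06). Base 6 to T had 13.1 against 2.68 per nt, a ratio of 4.88 (3.85 to 6.22). Base 4 to T had 12 against 3.73 per nt, a ratio of 3.22 (2.59 to 4.02). The intervals of base 4 to G and base 6 to T overlap widely, and that of base 4 to T lies below that of base 4 to G. The same ratio was 11.3 (10.5 to 12.1) for variants changed at base 5 and 58.0 (55.6 to 60.5) for the canonical spelling. Taking the far level as the level throughout, the sites in excess of it at 15 to 30 nt were 756 for base 4 to G, or 42.0% of its sites, 166 for base 6 to T, or 36.9%, and 132 for base 4 to T, or 26.7%. For the canonical spelling the excess came to 78.3%. That the far level holds throughout is an assumption. Where a spelling recurred in the searched stretch, the nearer copy was listed in all 687 cases seen, 489 of them canonical and 1 a member. A far copy can therefore go unlisted, as can a hexamer passed over for another. The ratios and excesses were not corrected for this, and its size in each spelling was not tested.

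Within the peak the spellings sat at nearly the same place. The mean distance of sites at 15 to 30 nt was 21.7 nt for base 4 to G, 22.2 nt for base 4 to T and 22.1 nt for base 6 to T, against 21.5 nt for the canonical spelling.

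Compared as classes, base 4 and base 6 did not differ in the share at 15 to 30 nt beyond the spread between autosomes. The mean share was 48.6% ± 4.61 for base 4 and 46.9% ± 13.7 for base 6 (SD, n = 19). The difference was 1.65 ± 15.1 percentage points, with base 4 higher on 9 of 19 autosomes (sign-flip permutation test, 2-sided, adjusted p = 0.729 over 16 comparisons). Over all sites the difference was 2.36 points with a 95% Newcombe interval of -2.69 to 7.35. Any difference within that interval is compatible with the counts. On chromosome 6 the base 6 share was 73.3%, while on chromosome 16 it was 26.3%, and the base 4 values all lay between 40.2% and 59.8%.

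**Figure D2:**
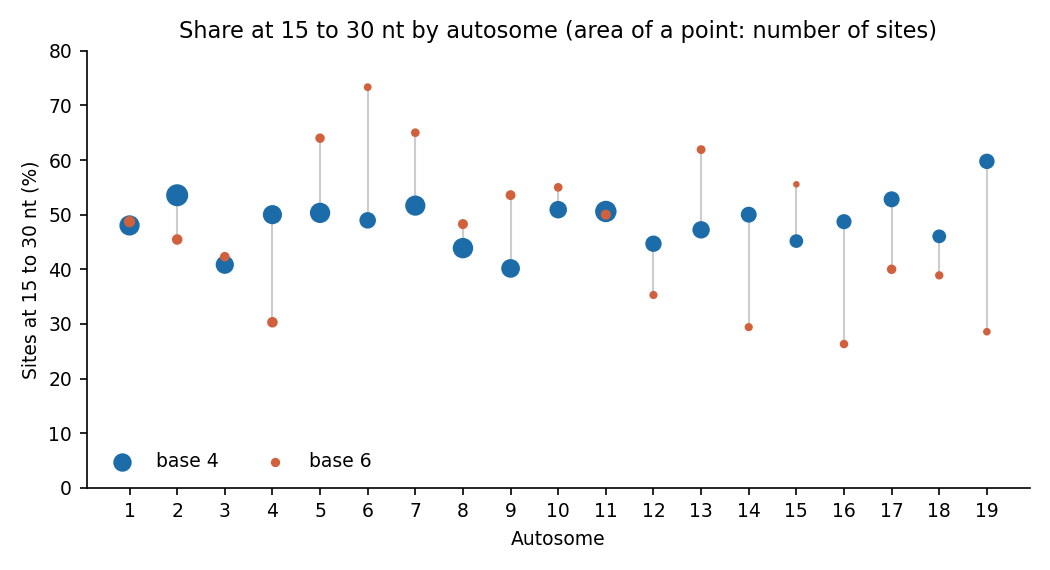
Percentage of sites at 15 to 30 nt on each of the 19 autosomes for base 4 (blue) and base 6 (orange), joined by a line, with the area of a point in proportion to its number of sites. The base 6 points lie above base 4 on some autosomes and below on others, and scatter from 26.3% to 73.3%.

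The classes hide a difference inside base 4. Set against each other, base 4 to G exceeded base 4 to T by 14.8 ± 15.7 points at 15 to 30 nt (SD, n = 19), on 14 of 19 autosomes (permutation test, adjusted p = 0.00432). Base 4 to T lay 10.3 ± 18.6 points below base 6 to T, on 13 of 19 autosomes, which did not pass the threshold (permutation test, p = 0.0156, adjusted p = 0.0935). The same difference has an adjusted p of 0.0499 when it stands in for base 4 against base 6 among the 16 comparisons, and of 0.0467 when the 12 comparisons between spellings are adjusted together with the 3 with base 5 below. The choice of family therefore decides this call. The excess of base 4 to G over base 6 to T was 4.47 ± 15.7 points, on 10 of 19 autosomes (permutation test, adjusted p = 0.554). Over all sites the 3 differences were 12.8 points (95% interval 7.83 to 17.5), -7.66 points (-13.9 to -1.35) and 5.11 points (-0.0528 to 10.2). These 12 comparisons between spellings, on 4 measures, were added after the data had been seen and were adjusted among themselves. On the share at 61 to 100 nt, the share with a neighbour within 1 kb and the share most downstream in a run, 0 of the 9 other comparisons passed, with adjusted p from 0.131 to 0.919 in the permutation test. Of these 9, the share at 61 to 100 nt of base 4 to G against base 4 to T (-5.00 ± 9.27 points) had an unadjusted p of 0.0327.

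Against base 5, the position between them, members together had a lower share at 15 to 30 nt on every autosome. The means were 48.1% ± 4.11 for members and 67.6% ± 2.84 for base 5, a difference of -19.4 ± 4.45 points (SD, n = 19, lower on 19 of 19 autosomes, permutation test, adjusted p = 4e-05). The canonical spelling had 79.7% ± 0.911, so members lay 31.6 points lower (-31.6 ± 4.04, lower on 19 of 19 autosomes, permutation test, adjusted p = 4e-05). Both adjusted values rest on 1e-05, the smallest p that 100000 resamples can give.

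Each member was then set against the base 5 variant with the same new base. With G as the new base, base 5 had 58.2% of its 957 sites at 15 to 30 nt, and the difference of base 4 to G from it was -5.59 ± 7.69 points, lower on 16 of 19 autosomes (permutation test, adjusted p = 0.0064). With T as the new base, base 5 had 68.2% of its 2659 sites there. The difference was -31.3 ± 15.7 points for base 4 to T (lower on 19 of 19 autosomes, permutation test, adjusted p = 3e-05) and -21.0 ± 14.6 points for base 6 to T ( lower on 17 of 19 autosomes, permutation test, adjusted p = 6e-05). These 3 comparisons were added last, with the values known, and were adjusted among themselves; whether the gap differs between G and T was not tested.

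What a site is listed with also depended on what else lay nearby. Where neighbouring sites share part of their searched stretch, the hexamer of 1 site can be placed inside the 6 to 100 nt of the other, which shows that a hexamer was present and yet another was listed. There were 1386 such cases over 263 pairs of hexamers. In 141 of these pairs the case arose at least 2 times (1264 cases), and 0 of the pairs occurred in both orders. The cases seen can all be put in 1 order of precedence among hexamers, and where the same spelling occurred again the nearer copy was listed in 687 cases and the farther in 0. Members were listed or passed over in 115 cases.

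Canonical sites had a member hexamer in their stretch in 19 cases, and 0 member sites had a canonical one. The most common single-base variant, aTtaaa, was listed in place of a member in 18 cases. The spelling base 4 to G was passed over for 9 other hexamers (52 cases) and listed over 13 (24 cases). Following the order through chains of pairs, 9 hexamers took precedence over it, 24 gave way to it and 2 could not be placed. Base 4 to T was passed over for 8 hexamers in 18 cases and listed over 2 in 2 cases. At least 13 hexamers took precedence over it. Base 6 to T was passed over for 12 hexamers in 19 cases and listed over 3 in 4 cases, and at least 16 took precedence over it. Both were passed over for base 4 to G in 2 cases each, and their order relative to each other could not be determined. A base 4 to T hexamer followed by A also spells aTtaaa, shifted by 1 base, and aTtaaa took precedence over it in the 2 cases seen.

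**Figure D3:**
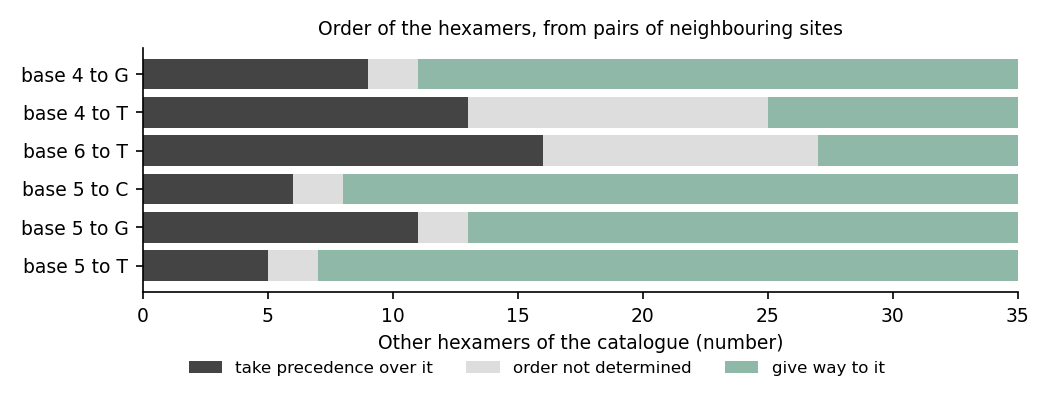
For the 3 member spellings and the 3 base 5 variants, the number of the 35 other hexamers of the catalogue that take precedence over it, give way to it, or could not be ordered. Base 4 to G has 9 hexamers before it, base 4 to T has 13 and base 6 to T has 16.

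If this order held at every site, a member site would be one at which none of the spellings before it lay within reach. Of the 263 pairs, 122 were seen in 1 case only and could not have shown both orders. The base 5 variants stood at other places, with 5 hexamers before base 5 to T, 6 before base 5 to C and 11 before base 5 to G. Their shares at 15 to 30 nt were 68.2%, 70.5% and 58.2%. Base 4 to G was listed over base 5 to G in the 1 case seen and had the lower share. The part of the order in the distance shares was not tested.

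The second question was whether members stand alone or beside other sites. Sites of a strand joined by gaps of at most 2 kb were taken as a run. Most members lay in runs with others. A site with base 4 to G was alone in 17.5% of cases, one with base 4 to T in 18.6% and one with base 6 to T in 19.6%, against 43.1% of canonical sites and 19% of base 5 sites. The middle of a run held 48.8%, 46.5% and 46.7% of them, in the same order, against 21.6% of canonical sites.

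**Figure D4:**
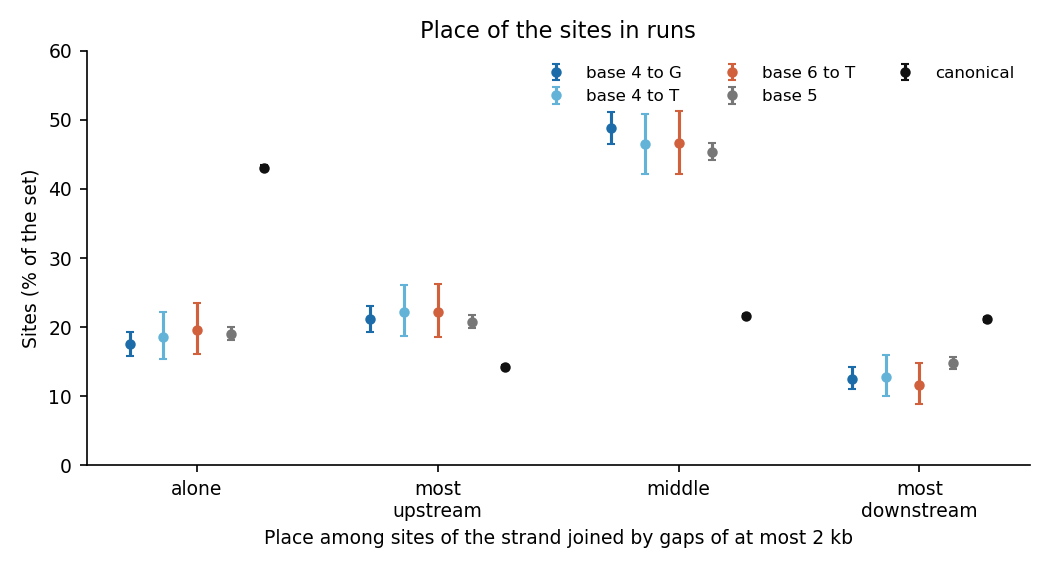
Percentage of the sites of each set that lay alone or at the upstream end, in the middle or at the downstream end of a run of same-strand sites with gaps of at most 2 kb; bars are 95% Wilson intervals. The 3 member spellings sit close to each other and to base 5 in each place, and canonical sites are more often alone and less often in the middle.

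Of the 2250 members inside runs, 341 (15.2%) were the most downstream site. By spelling this was 15.2% for base 4 to G, 15.6% for base 4 to T and 14.4% for base 6 to T. All sites in runs were most downstream in 26.1%, and canonical ones in 37.1%. Over autosomes members lay 21.4 points below them (-21.4 ± 3.49, SD, n = 19, lower on 19 of 19, permutation test, adjusted p = 4e-05). Members were also below base 5 by 2.83 points (-2.83 ± 4.29, lower on 14 of 19 autosomes, permutation test, adjusted p = 0.0371), a call that was lost under 6 other settings. The upstream end held 25.6%, 27.3% and 27.6% of the members in runs and 25% of canonical sites. A run has only 1 site at each end, so these shares also depend on run size. Sites in runs lay in runs of a median of 6 sites for members, 5 for base 5 and 4 for canonical sites. The shares were not matched for run size, and its part in the differences was not tested.

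Members had close neighbours. The nearest site of the strand lay at a median of 173 nt for base 4 to G, 155 nt for base 4 to T and 182 nt for base 6 to T, against 240 nt for base 5 and 1272 nt for the canonical spelling. A neighbour within 1 kb was present at 74.8%, 75.2% and 71.8% of member sites, at 72.3% of base 5 sites, at 57.8% of all sites and at 46.2% of canonical sites. Over autosomes members exceeded canonical sites by 27.6 ± 3.25 points (SD, n = 19, higher on 19 of 19, permutation test, adjusted p = 4e-05). Base 4 and base 6 differed by 2.12 ± 9.91 points on this measure (permutation test, adjusted p = 0.634), and over all sites by 3.08 points (95% interval -1.28 to 7.74).

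Canonical sites were among these neighbours, more often downstream than upstream. One lay within 1 kb of 41.5% of base 4 to G, 40.8% of base 4 to T and 38.9% of base 6 to T sites, of 41.5% of base 5 sites and of 33.8% of all sites. Where there was one, the nearest lay downstream in 60.9%, 59.9% and 61.1%. The share was 60.6% for base 5, 56.6% for aTtaaa and 56.5% over all sites with a canonical site in reach. Of members in runs that were not themselves the last site, 50.1%, 49.4% and 50% lay in a run that ended in a canonical site, near the 51.4% of base 5 and the 52.2% of all sites.

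Members took a growing share of sites as runs got larger. Their share of sites was 1.04% among sites alone, 1.62% in runs of 2 to 3 sites, 2.57% in runs of 4 to 9 and 3.13% in runs of 10 or more. Each spelling followed this order, with base 4 to G going from 0.665% to 2.07%, base 4 to T from 0.194% to 0.577% and base 6 to T from 0.186% to 0.488%. The share of canonical sites went from 59.3% to 25.2% over the same classes, and that of base 5 from 2.59% to 6.55%.

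**Figure D5:**
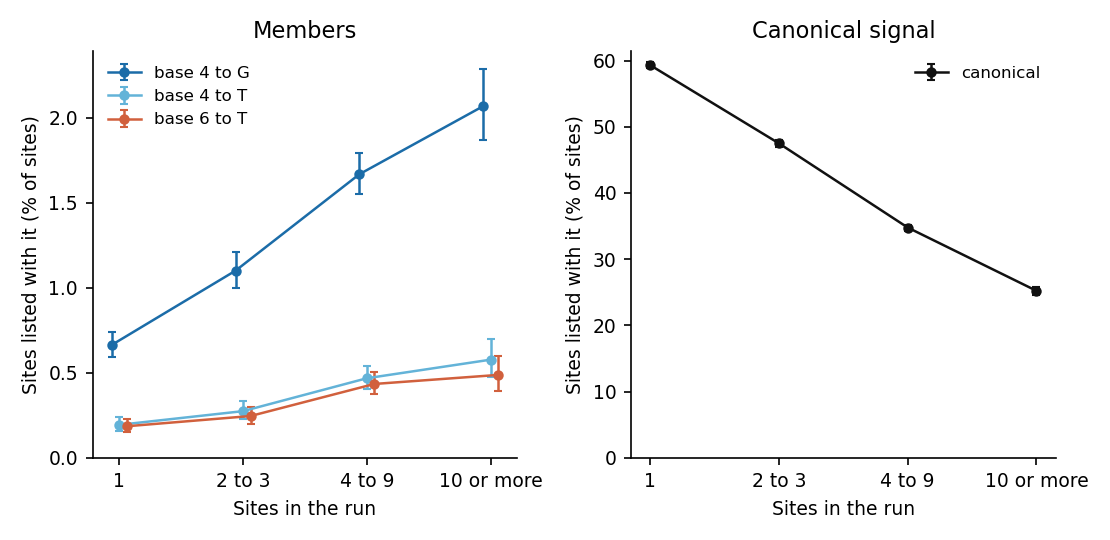
Percentage of sites listed with each member spelling (left) and with the canonical signal (right), by the number of sites in the run; bars are 95% Wilson intervals. The 3 member spellings climb with run size, base 4 to G from 0.665% to 2.07%, while the canonical share goes from 59.3% to 25.2%.

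Runs could hold several members. Of 25530 runs of at least 2 sites, 1970 held a member, and 240 held 2 or more, with 520 members in them. There were 204 runs with 2 members, 32 with 3 and 4 with 4. The neighbour upstream within 1 kb of a base 4 to G site carried that spelling too in 10.7% of cases (103 of 965), while 1.83% of all upstream neighbours did. For base 4 to T the figures were 5.97% and 0.511%, and for base 6 to T 5.73% and 0.449%. There were 103, 16 and 13 such neighbours, and many of them may be listed with 1 and the same hexamer as the site itself. In all, 160 base 4 to G sites (8.89%), 28 base 4 to T sites (5.66%) and 24 base 6 to T sites (5.33%) could share their hexamer with another site. Such sites are not independent. How often a neighbour carried the same spelling without them was not analysed, so double listing may make up much of these shares.

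The run with most base 4 sites was found at chr11:51934173-51938813 (mm9, plus strand), with 19 sites of which 6 were canonical. It was the first of 4 tied runs when chromosome names were sorted as text. Its 4 base 4 to G sites, with aatGaa at 49, 21, 89 and 49 nt, all lay in the middle of the run. The second of them, at 51935880 to 51935903, and the third, at 51935952 to 51935974, could share 1 hexamer. The run with most base 6 sites, the first of 17, was found at chr1:164524746-164529218 (plus strand), with 12 sites of which 3, including the last, were canonical. Its 2 aataaT sites, at 164524921 to 164524922 and 164524961 to 164524962, had the hexamer at 24 and 64 nt and could share it. In both pairs the hexamer that was near to 1 site could be the far hexamer of the next.

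The width of a cluster is the stretch over which the RNA ends were joined. The median was 10 nt for base 4 to G and 9 nt for base 4 to T and for base 6 to T. Clusters 1 nt wide were 15.5%, 15.2% and 17.1%, against 13.9% of base 5 sites, 12.4% of all sites and 9.94% of canonical sites. Base 4 and base 6 did not differ in mean log2 width beyond the spread between autosomes (0.0273 ± 0.515, permutation test, adjusted p = 0.854), nor in the share 1 nt wide (-2.40 ± 9.16 points, adjusted p = 0.634). Over the most downstream site of each run alone, the difference in log2 width was 0.405 and passed (permutation test, p = 0.0229, adjusted p = 0.0459). That adjustment was over the comparisons run under this setting, fewer than 16.

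The widest cluster at 15 to 30 nt of each spelling, searched outside chromosome 18, gives an example of a broad site. For base 4 to G it was 188 nt wide, at chr11:40567291-40567478 (mm9, minus strand), with aatGaa 20 nt away, in the middle of a run of 32 sites. For base 4 to T it was 201 nt wide, at chr11:59269479-59269679 (plus strand), with aatTaa at 23 nt, in a run of 17. For base 6 to T it was 171 nt wide, at chr3:145309981-145310151 (minus strand), with aataaT at 26 nt, in a run of 7. The genes at these positions are not named, because no annotation of mm9 was used here.

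Of the 11 comparisons of base 4 with base 6, 0 passed the threshold by the permutation test, adjusted or at an unadjusted p under 0.05. Under single other settings 5 of the 11 passed, with adjusted p from 0.0346 to 0.0499. They were the share at 15 to 30 nt without base 4 to G, log2 width and opposite-strand overlap at the most downstream site of a run, mean distance within 10 to 35 nt, and the share most upstream with runs joined at 5 kb. Apart from the measures above they were the share at 61 to 100 nt (1.47 ± 9.46 points), the mean distance within 15 to 30 nt (-0.161 ± 1.06 nt), the share alone (-1.61 ± 8.46 points), most downstream (0.354 ± 7.60 points) and most upstream in a run (-2.22 ± 12.5 points), with a canonical site within 1 kb (2.27 ± 9.19 points) and overlapping a site of the other strand (0.411 ± 2.26 points). Each is base 4 minus base 6 with the SD over 19 autosomes, and the adjusted p ran from 0.634 to 0.854. Over all sites the 95% intervals were -3.04 to 5.57 points for the share at 61 to 100 nt, -6.02 to 1.94 points for the share alone and -3.34 to 4.60 points for the share most downstream.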

How the data were processed

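Poly(A) RNA ends were measured by 2P-seq in 12 libraries. Trimmomatic, STAR, bedtools (no version given) and the mm9 build are named in the submitters' processing notes. The sources used here do not state how ends were joined into clusters, how hexamers were searched or whether priming inside A-rich stretches was filtered; no such false end was removed. The deposited catalogue gives position, strand, hexamer and distance in nt. Starts, counted from 0 in it, are printed from 1.

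The members and all windows were chosen with earlier results of these data known. Named sites were the widest cluster at 15 to 30 nt of each spelling outside chromosome 18 and the run with most sites of each class. A site's hexamer was placed as a range, because the distance's reference point is unknown. Shares have 95% Wilson intervals, their differences Newcombe intervals, and per-nt ratios exact binomial ones; all cover counting error only and treat sites as independent. The 16 main comparisons used a 2-sided sign-flip permutation test over 19 autosomes (100000 resamples) with Benjamini-Hochberg adjustment over them. The 12 comparisons between spellings and 3 with base 5 were adjusted apart. Other settings were adjusted over the comparisons run under each, for several settings fewer than 16. The scripts were checked on simulated data. Python 3.11.15, numpy 2.4.6, pandas 2.3.3 and scipy 1.17.1 were used.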

Additional observations from a re-analysis of the deposited data

Results flagged for a closer look

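The mitochondrial genome was left out of every comparison above, and 7 of the 80 clusters listed on it carried a member spelling. These were 5 with base 4 to G, 1 with base 4 to T and 1 with base 6 to T. That is 8.75% (95% Wilson interval 4.30% to 17.0%) of the mitochondrial clusters, against 1.89% of all others. They are given here as data that no comparison used, and the difference was not tested. With 1 catalogue for the series, their level in control libraries was not analysed here.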

How the results depend on the processing

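No paired analysis was possible because the catalogue's columns carry no library or replicate number. The 11 comparisons of base 4 with base 6 have small differences, so their sign moved easily. Without base 4 to G the difference became -10.3 points for the share at 15 to 30 nt (permutation test, adjusted p = 0.0499), 0.0734 nt for the mean distance within it and 0.406 points for the share alone. Taking 1 site per run, the most downstream, gave -0.304 points at 15 to 30 nt, 0.00679 nt for the mean distance, 0.405 for log2 width (permutation test, adjusted p = 0.0459) and 1.28 points for opposite-strand overlap (permutation test, adjusted p = 0.0406). On the minus strand the values were -2.06 points at 15 to 30 nt, 0.0943 nt for mean distance, -0.710 points most downstream and -0.906 points with a neighbour, and on the plus strand -0.0229 for log2 width and 0.222 points most upstream. Equal weight for the spellings gave -2.91 points at 15 to 30 nt. Clusters wider than 1 nt gave -0.0839 for log2 width, -0.261 points at 61 to 100 nt and -0.554 points with a canonical site; those of at most 50 nt gave -0.325 points most downstream. Without sites that may share a hexamer, log2 width differed by -0.00142. Sites at 15 to 30 nt alone gave 3.46 points most upstream and -0.109 points for opposite-strand overlap. Runs joined at 0.5 kb and 5 kb gave 0.150 and 0.669 points alone; 5 kb also gave -4.91 points most upstream (permutation test, adjusted p = 0.0346) and -0.669 points with a neighbour. A window of 10 to 35 nt gave -0.770 nt for mean distance (permutation test, adjusted p = 0.0367). Members minus base 5 most downstream lost its call on the plus strand (-2.80 points), the minus strand (-3.09), in clusters wider than 1 nt (-2.94), at equal weight (-2.41), without base 4 to G (-2.74) and without base 4 to T (-2.96). The causes were not tested. Leaving out base 6 to T leaves no base 6, so base 4 against base 6 has no value there, and chromosome Y holds no member to add. The other 4 comparisons, with base 5 at 15 to 30 nt and with canonical sites, kept direction and side of the threshold in all alternatives run.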

Other observations

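Some values of the profiles were seen only afterwards and have no test. Base 6 to T had 19 of its 450 sites (4.22%) at 6 to 8 nt, the nearest distances listed, against 25 of 2295 (1.09%) for base 4, a difference of -3.13 points with a 95% interval of -5.44 to -1.54. At 6 nt itself there were 11 base 6 to T sites and 0 sites of either base 4 spelling. Over the wider stretch of 6 to 14 nt the shares were closer, 7.11% for base 6 to T and 6.23% for base 4. Within base 4 they were 5.83% for base 4 to G and 7.68% for base 4 to T. Clusters wider than 50 nt were 9.11% of base 6 to T, 8.08% of base 4 to T and 5.39% of base 4 to G, and base 4 minus base 6 was -3.14 points (95% interval -6.29 to -0.594).

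The far stretch held a narrow peak of base 4 to G. At 97 nt it was listed at 27 sites, where the mean over 61 to 100 nt was 10.75 per nt. These 27 sites lay on 17 chromosomes, 7 of them (25.9%, 95% Wilson interval 13.2% to 44.7%) were alone on their strand, and 6 could share their hexamer with another site. The share alone at the other distances of that stretch was 19.4% (78 of 403). The highest counts of base 4 to T and base 6 to T in the stretch were 12 sites at 67 nt and 8 sites at 87 nt.

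By place in a run, the share of base 4 to G at 15 to 30 nt was 58.2% at the upstream end, 52.0% in the middle, 47.8% at the downstream end and 45.1% alone. For base 4 to T these shares were 40.9%, 38.7%, 36.5% and 38.0%, and for base 6 to T 41%, 50.5%, 50% and 40.9%. Base 5 to G had 68.2%, 56.3%, 57.3% and 50.7%, so a high value at the upstream end and a low one alone were not particular to base 4 to G. Whether the spellings differ in this was not tested.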
